A study of Mus musculus with 2 samples.

Results

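Paneth cells sit at the base of the small-intestinal crypt and fill their granules with antimicrobial proteins, among them lysozyme, alpha-defensins and a secreted phospholipase. They also feed the neighbouring stem cells with Wnt and Notch ligands. The genes described here are 9 Paneth cell products. They comprise the lysozymes Lyz1 and Lyz2, the metalloproteinase Mmp7, the lectin Itln1, the angiogenin Ang4, the phospholipase Pla2g2a, the alpha-defensins Defa24 and Defa5, and the ligand Wnt3. They were chosen by symbol, through RefSeq accessions carried by the array's non-control probes, from 32235 genes or accessions with a probe. Of the 9 genes, 6 had 1 or more probes, 7 probes in all, and 5 were measured above background. Pla2g2a, Defa24 and Defa5 had no probe under an accession assigned to them, and no value is given for them. The RefSeq table lists Pla2g2a by a non-coding transcript, and this gene is known to be disrupted in C57BL/6 mice. The strain of these mice is not stated in the labels.

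The RNA came from wild-type mouse small-intestinal organoids, crypt-derived epithelial cultures, that were grown in EGF, Noggin and R-spondin, either with recombinant RankL or untreated. RankL is a TNF-family ligand whose receptor RANK activates NF-kB, and the series' title names M cells, the antigen-sampling epithelial cells, as its subject. The series gives 50 to 200 ng/ml of RankL with medium renewed on days 2 and 5, and the dose and time of the RNAs on these arrays are not given. One RNA pair was hybridised to 2 dual-colour arrays, and RankL RNA carried Cy3 on the first and Cy5 on the second. There is thus 1 replicate per condition and no test. Errors below are the SD of the 2 arrays and leave out the spread between cultures.

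Values are log2 ratios of RankL over untreated after background correction and loess normalization, unless stated otherwise. A gene was called higher or lower if its mean ratio was at least 1 in size, a 2-fold difference, with 0.5 or more reached on both arrays in that direction. Between 38.3% and 43.4% of the 43379 non-control spots were well above background in each RNA on each array, and 12877 genes or accessions were measured. The median SD between arrays over these genes was 0.148. A ratio of whole-organoid RNA cannot tell more cells of a type from more RNA per cell.

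Lyz1 and Lyz2 lie next to each other in the mouse genome and arose by duplication, with Lyz1 the Paneth form and Lyz2 the form of macrophages and other myeloid cells. Their upstream sequences are shown because only the Lyz1 probe was above background. Whether each probe binds the transcript of 1 paralogue alone was not checked, since no probe sequences were used here. Each line holds the 250 bases before the start site from RefSeq (GRCm38.p6), minus strand, 5′ to 3′, at chr10:117292869-117293118 for Lyz1 and chr10:117282273-117282522 for Lyz2. Capitals mark the 50 bases before the start site that both genes share letter for letter.
Lyz1: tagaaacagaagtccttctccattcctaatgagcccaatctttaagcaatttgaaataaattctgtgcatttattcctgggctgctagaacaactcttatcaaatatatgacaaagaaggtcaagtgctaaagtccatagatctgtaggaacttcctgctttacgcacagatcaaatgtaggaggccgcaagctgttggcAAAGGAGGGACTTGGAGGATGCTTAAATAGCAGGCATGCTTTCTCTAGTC
Lyz2: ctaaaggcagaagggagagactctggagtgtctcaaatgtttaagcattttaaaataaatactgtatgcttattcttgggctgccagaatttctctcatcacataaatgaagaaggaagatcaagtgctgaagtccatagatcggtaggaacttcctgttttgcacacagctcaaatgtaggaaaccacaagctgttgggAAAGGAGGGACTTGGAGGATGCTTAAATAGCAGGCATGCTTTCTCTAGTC

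In a global alignment 200 of the 250 bases, or 80%, were identical between the lysozyme genes. The other pairs among the first start sites of the 6 genes in the RefSeq promoter table reached between 46% and 54% in the same alignment. For Mmp7 and Ang4 the same window is shown because it held matches to searched motifs, which are in capitals. Mmp7 is from chr9:7691840-7692089, plus strand, and Ang4 from chr14:51773591-51773840, minus strand.
Mmp7: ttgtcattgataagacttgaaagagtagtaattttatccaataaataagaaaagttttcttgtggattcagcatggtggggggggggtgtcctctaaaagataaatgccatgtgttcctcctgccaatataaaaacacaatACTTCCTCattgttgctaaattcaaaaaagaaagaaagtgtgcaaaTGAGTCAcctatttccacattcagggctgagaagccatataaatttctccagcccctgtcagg
Ang4: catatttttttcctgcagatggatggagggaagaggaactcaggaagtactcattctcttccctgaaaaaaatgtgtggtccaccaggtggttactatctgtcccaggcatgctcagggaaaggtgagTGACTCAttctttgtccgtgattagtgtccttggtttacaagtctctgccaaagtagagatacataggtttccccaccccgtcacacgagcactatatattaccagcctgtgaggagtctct

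The motifs searched on both strands were GGGNNTTTC for NF-kB, CTTTGAT for TCF, TGANTCA for AP-1 and GAGGAAGT for Ets factors, the family of Spib. Over 32851 windows of this length, 3.72% held the NF-kB letters, 3.21% the TCF letters, 6.75% the AP-1 letters and 2.44% the Ets letters. The Mmp7 window held an AP-1 match from 63 to 57 bases before the start and an Ets match, on the other strand, from 109 to 102 bases before it. The Ang4 window held an AP-1 match from 122 to 116 bases before its start. None of the 4 motifs was found in the windows of Lyz1, Lyz2, Itln1 or Wnt3. A second listed start site of Mmp7 held the TCF letters in its window, from 247 to 241 bases before that start. That window, chr9:7692091-7692340, begins just past the first start site, so these letters lie downstream of the first start.

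The measured products did not move together. Mmp7 was 8.68-fold higher with RankL and Lyz1 2.74-fold higher, Itln1 was 3.27-fold lower, and Ang4 and Wnt3 did not meet the size rule. Of 5 measured genes, 2 were higher, 1 lower and 2 neither, where 5.47% of all measured genes were higher and 2.50% lower. All 5 were well above background in both RNAs on both arrays, so none was counted only through the RNA in which it was high. Their median ratio was 0.24, against 0.009 over all measured genes, and their median ratio in size 1.46 against 0.23. With 5 genes of 1 RNA pair these are descriptions, not estimates for the cell type.

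**Figure D1:**
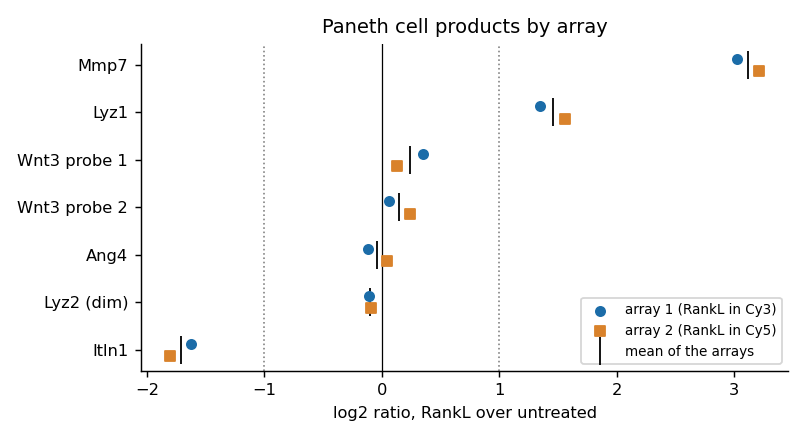
Log2 ratio of RankL over untreated for each probe of the listed genes (x axis), on array 1 (circles) and array 2 (squares), with the mean as a bar and dotted lines at the size rule of 1. Mmp7 at 3.12 and Lyz1 at 1.46 lie right of the lines on both arrays, Itln1 at -1.71 lies left of them, and the probes of Wnt3, Ang4 and Lyz2 lie between them.

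Among the granule proteins, Mmp7 had the largest ratio. This enzyme, matrilysin, cuts the pro-segment off mouse alpha-defensins and so activates them. Its spot signal minus local background was 2443 on array 1 and 2912.5 on array 2 in RankL RNA, and 303 and 275 in untreated RNA. The RankL signals lay far above both untreated ones whichever dye they carried. The normalized ratio was 3.02 on array 1 and 3.21 on array 2, a mean of 3.12 ± 0.13, which placed Mmp7 61st from the highest of 12877 genes.

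Lyz1 encodes the lysozyme that Paneth granules release to cleave bacterial cell walls. Background-subtracted signals were 1777 and 2071.5 in RankL RNA on arrays 1 and 2, and 800 and 687 in untreated RNA. Both RankL values exceeded both untreated values. The ratio was 1.35 on array 1 and 1.56 on array 2, a mean of 1.46 ± 0.15, and 97.0% of measured genes had a lower ratio.

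The probe of its paralogue Lyz2 was not well above background in either RNA on either array. Its signals minus background were 17 and 10 with RankL and 18.5 on both arrays without it, over a local background of 23.5 to 25.5 in Cy3 and 112 to 113 in Cy5. No fold is given for Lyz2. Of 12 macrophage marker genes with a probe, 11 were not measured either, among them Csf1r, Adgre1, Itgam and Ptprc. The one measured was Cd14, a lipopolysaccharide co-receptor, at 1.21 ± 0.22. The summed signal over background of this list's 21 probes was 732 and 626 with RankL and 368 and 463 untreated. Without Cd14 it was 293 and 210 with RankL and 210 and 282 untreated, with no shared direction on the arrays. Within each dye the RNAs were close, at 293 with RankL and 282 untreated in Cy3 and 210 for each in Cy5. None of 7 neutrophil marker genes was measured. The part of these cells in the Lyz1 ratio was not tested, and most of their defining markers were dim in both RNAs.

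Itln1 encodes intelectin, a lectin that binds sugars found on microbes and is made by Paneth and goblet cells. Its signals minus background were 74 and 82 in RankL RNA and 380.5 and 448.5 in untreated RNA on arrays 1 and 2. Both untreated signals were higher than both RankL signals. The ratio was -1.62 on array 1 and -1.80 on array 2, a mean of -1.71 ± 0.12, and Itln1 ranked 94th from the lowest of the measured genes. The scanner software's ratios read -2.57 in the authors' deposited values.

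Ang4, a ribonuclease-family protein with activity against gut bacteria, gave signals minus background of 122 and 133 with RankL and of 153 and 136 without. Within each dye the untreated signal was slightly the larger before normalization. The ratio was -0.12 on array 1 and 0.04 on array 2, a mean of -0.04 ± 0.12, so its sign differed between the arrays.

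**Figure D2:**
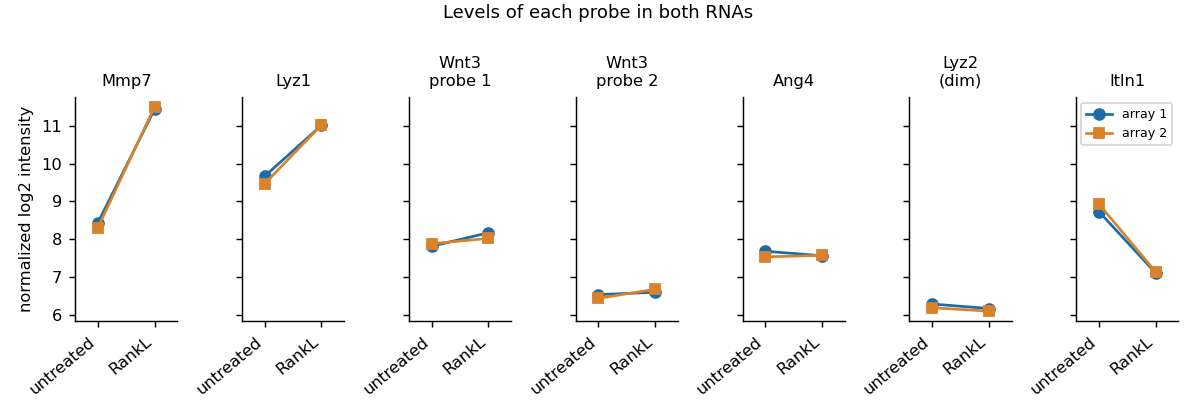
Normalized log2 intensity (y axis) of each probe in untreated and RankL RNA, joined by a line within array 1 (circles) and array 2 (squares). Within a panel Mmp7 rises from 8.43 and 8.30 to 11.45 and 11.51, Lyz1 from 9.67 and 9.47 to 11.02 and 11.03, and Itln1 drops from 8.73 and 8.93 to 7.10 and 7.13, while levels in different panels belong to different probes and are not comparable.

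Wnt3 is one of the ligands through which Paneth cells sustain Lgr5 stem cells. Its brighter probe gave signals minus background of 210.5 and 204.5 with RankL and of 173.5 and 191 without. Within each dye the RankL signal was slightly the larger. The ratio was 0.35 on array 1 and 0.13 on array 2, a mean of 0.24 ± 0.15. The second probe was dim in untreated RNA on array 2 and read 0.06 and 0.24, a mean of 0.15 ± 0.13. Neither probe met the size rule, and 74.7% of genes had a lower ratio than the brighter probe. In the authors' deposited values the second probe read 0.06 on array 1 and 1.08 on array 2, a mean of 0.57.

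**Figure D3:**
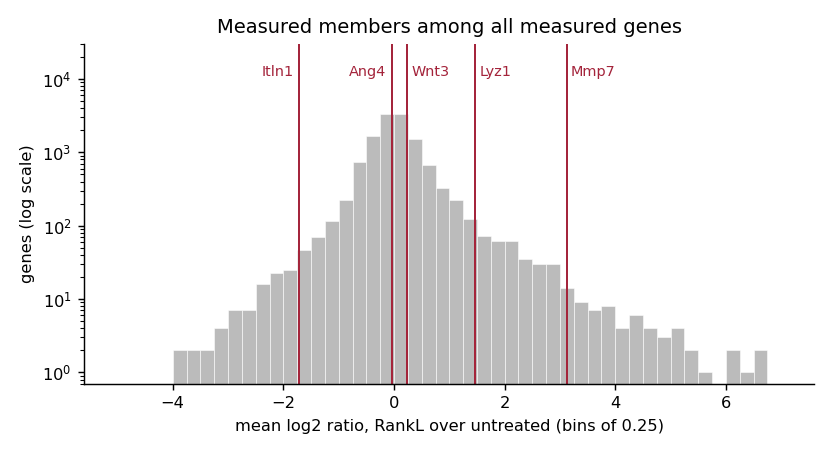
Number of measured genes (y axis, log scale) by mean log2 ratio of RankL over untreated (x axis, bins of 0.25), with lines at the 5 measured members. Ang4 and Wnt3 fall in the central peak, Lyz1 and Mmp7 in the right tail with 97.0% and 99.5% of genes below them, and Itln1 in the left tail with 0.722% of genes below it.

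Other granule genes of Paneth cells give the setting for these products. Of 50 listed genes that are not among the 9, 10 had a probe and 8 were measured. None of the 8 was higher or lower by the size rule, and their median was 0.06, turning to -0.19 where arrays were median-centred and not loess-normalized. The list held 42 alpha-defensin entries, of which Defa3, Defa20, Defa21, Defa22, Defa23 and Defa39 were measured. Alpha-defensins are small cysteine-rich peptides that permeabilise bacteria. The 6 ratios ran from -0.01 to 0.41 with a median of 0.11, and stayed between -0.21 and 0.48 over all alternative settings tried. Defa21 had the largest, 0.48 on array 1 and 0.35 on array 2. Its spot signals, not background-subtracted, were 1791 and 1992 with RankL and 1638 and 1539 without. Defa3 gave 10560 and 16400 with RankL and 17350 and 13780 without, and its ratio of 0.09 ± 0.37 changed sign between arrays. Alpha-defensin genes are near-identical copies, so each probe may bind several of them and a value for 1 defensin gene is uncertain. The same holds for any signal that Defa5 or Defa24 transcripts could add to these probes. The lipase Pnliprp2 was lowest at -0.61 ± 0.21, and read as far as -1.45 with the scanner software's ratios. Mptx1 and Habp2 were not measured.

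**Figure D4:**
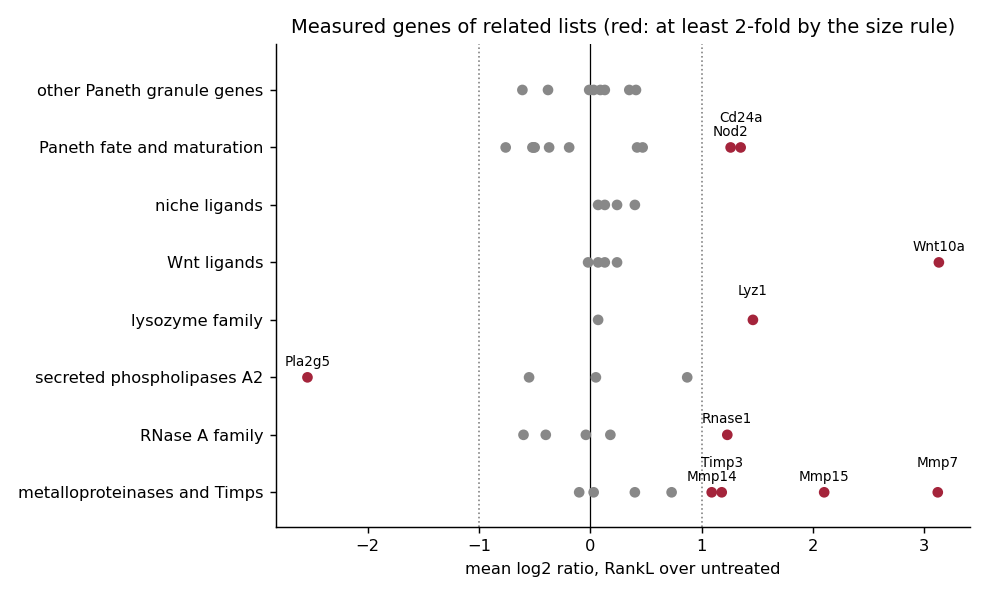
Mean log2 ratio of RankL over untreated (x axis) of each measured gene in 8 lists of related genes (rows), in red where the size rule was met and grey otherwise. None of the 8 other granule genes is red, while the metalloproteinase row holds Mmp7, Mmp15, Mmp14 and Timp3 above 1 and the phospholipase row holds Pla2g5 at -2.54.

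Genes of Paneth cell fate and maturation were mostly within the size rule. Of 10 measured among 13 listed, 2 met the rule upwards, 0 downwards and 8 did neither, and the median was -0.28. Cd24a, a surface glycoprotein used to sort Paneth cells, was at 1.35 ± 0.015. Nod2, the intracellular sensor of bacterial muramyl dipeptide, was not above background in untreated RNA. Its RankL level was 2.33-fold above the lowest level called well above background, or its own untreated level where that was higher. This figure holds for the reported processing and is not a strict minimum. The Nod2 ratio of 1.26 read 1.15 without background subtraction and 3.82 with the scanner software's values. The largest ratios short of the rule were those of Xbp1 and Fzd5. Xbp1, a transcription factor of secretory cells, was at -0.76 ± 0.10. Fzd5, the Wnt receptor that Paneth cell maturation needs, was at -0.52 ± 0.36, and its weaker second probe at -0.18 ± 0.092. Xbp1 reached -1.03 with the scanner software's ratios. Atoh1 and Gfi1, secretory lineage factors, were not measured.

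Wnt3 was compared with the other ligands. Of 8 niche ligand genes including Wnt3, 4 were measured and none met the rule, with the Notch ligand Dll1 highest at 0.40 ± 0.13. Egf, Tgfa, Wnt6 and Wnt11 were not measured. Among 19 Wnt genes, 5 were measured and Wnt10a alone met the rule. It read 3.22 and 3.05, a mean of 3.13 ± 0.12, while 1 of 2 arrays placed the untreated RNA above background, and read 5.05 with the scanner software's ratios. Wnt9b was above background only in RankL RNA, and its ratio was small, 0.04 on array 1 and 0.22 on array 2, a mean of 0.13 ± 0.13.

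The families of Mmp7, Pla2g2a, Ang4 and the lysozymes were also examined. Of 8 measured metalloproteinase and inhibitor genes, Mmp7 included, 4 were higher and 0 lower, with a median of 0.91, which was 0.09 over all 25 genes with a probe. Mmp15 and Mmp14, membrane-anchored metalloproteinases, were at 2.10 ± 0.35 and 1.09 ± 0.16, and Timp3, a tissue inhibitor of these enzymes, at 1.18 ± 0.028. Mmp14 was 0.98 on array 1 alone, and its second probe, too dim to count as measured, read 0.34. Timp3 read 2.24 with the software's ratios. Mmp17 and Timp2 were at 0.73 ± 0.072 and 0.40 ± 0.46, short of the rule.

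In the list of secreted phospholipases A2, which also held the receptor gene Pla2r1, 4 of 12 genes were measured and only Pla2g5 met the rule. Its spot signals were 85.5 and 193.5 with RankL and 810.5 and 811 without, and its ratio was -2.54 ± 0.023, or 5.83-fold lower. The size depended on the processing, from -3.50 with the scanner software's ratios to -2.49 without background subtraction. Pla2g12b was at 0.87 ± 0.24, reaching 1.04 on array 1 alone, and Pla2g12a at -0.55 ± 0.20. These enzymes release fatty acids from phospholipids, and Pla2g2a, the Paneth granule form, has no value here.

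In the ribonuclease A list of Ang4, 5 genes were measured, 4 of the family and the ribonuclease inhibitor gene Rnh1, and 1 was higher. It was Rnase1, the pancreatic-type ribonuclease, at 1.23 ± 0.21, with a second probe at 0.78. Rnase4 and Ang were at -0.60 ± 0.045 and -0.40 ± 0.051, and Rnase4 read as far as -1.11 in the software's ratios. In the lysozyme family, Lyz1 and the milk-protein gene Lalba were the measured members, the latter at 0.07 ± 0.27.

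Goblet cells share products such as Itln1 with Paneth cells, so their markers stand beside the Itln1 value. Of 8 measured goblet genes of 9 listed, 4 were higher, 2 lower and 2 neither. Guca2a, Zg16, Clca1 and Fcgbp were higher, from 1.34 for Clca1 to 3.45 for Guca2a. Without the filter on dim probes Fcgbp lost its call, which left 3 goblet genes higher, since its brightest probe had an outlier spot on array 2 and so a value of 2.10 on array 1 only. Spink4 and Agr2 were lower at -2.11 ± 0.17 and -1.58 ± 0.058, while the mucin Muc2 was at -0.30 ± 0.23 and Tff3 at -0.34 ± 0.099. Muc2 spot signals were weak, 60 and 162 with RankL and 193 and 82 untreated before background subtraction. Its other probes were not measured, and Muc2 read from -0.78 to -0.14 over the alternative settings. The list's summed signal over background, over 12 probes, was 75500 and 82500 with RankL and 29200 and 27700 untreated. Without Guca2a the other 11 probes summed to 25600 and 27600 with RankL and 22300 on both arrays untreated. Much of that RankL signal came from Fcgbp, whose brighter probe read 10540 and 10750 with RankL and 3368 and 3050 untreated before background subtraction. Its array 2 values are from the outlier spot, which the sums keep. Tff3 went the other way, with 7002 and 8400 against 11880 and 11800, and 4 of the 8 measured genes had ratios below 0. These sums thus follow a few bright genes. The part of goblet cells in the ratios of Itln1 and Lyz1 was not tested. Of 8 fibroblast markers, 3 were measured, with Acta2 at 0.62 ± 0.036 by its brightest probe and -0.09 by a second, Col1a2 at 0.17 ± 0.17 and Vim at -0.07 ± 0.0077.

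**Figure D5:**
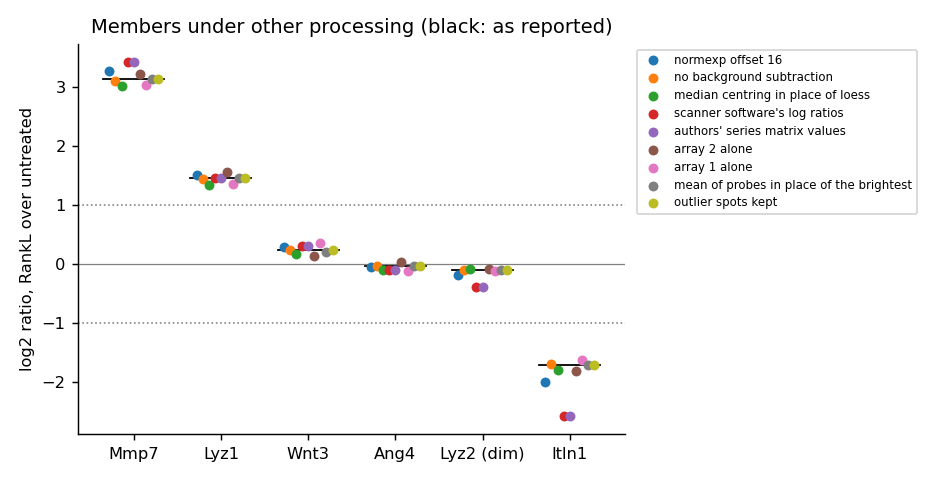
Log2 ratio of RankL over untreated (y axis) of each member with a probe under 9 other ways of processing (coloured points), with the reported value as a black line and dotted lines at 1 and -1. Among these ways the series matrix repeats the scanner software's ratios. Mmp7 ran from 3.01 to 3.42, Lyz1 from 1.33 to 1.56 and Itln1 from -2.57 to -1.62, each beyond its line throughout. Wnt3, Ang4 and the dim Lyz2 stayed between the lines, with Wnt3 shown by its brighter probe or by the mean of its probes.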

How the data were processed

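Array intensity values deposited by the authors were median spot and local background brightness in Cy3 and Cy5, with no normalization, per the file headers (Agilent Feature Extraction 10.5.1.1, array build mm9; the submitters' processing notes name 8.5.1.1). The same software made the deposited log10 ratio (red over green) of each spot after subtracting background and normalizing dyes, per the file headers. The series matrix held them turned to RankL over untreated, within 5.0e-06, with medians near 0. Flags of 0 or 1 per spot were deposited too.

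In limma 3.58.1 (R 4.3.3), background was corrected by normexp with offset 50 and ratios normalized by loess, with 1639 control spots at weight 0. Outlier spots were left out of the ratios and of the measured rule but kept in spot signals and their sums, and 0 spots were saturated. A probe was measured if both arrays placed at least 1 of the RNAs well above background. The median was used because the files hold no mean spot signal. The offset shrinks ratios of dim probes. Both arrays lay on 1 slide. Probe accessions were matched without version to GRCm38.p6 RefSeq for 65.4% of 41174 probes, so a gene may also be read by a probe left unnamed. A gene took its brightest measured probe. The steps were tested on simulated data.

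Members and gene lists were chosen with earlier results of these data known. Named list genes were those meeting the size rule plus the 2 largest others. Alternatives are given in the closing section. The 2 arrays of 1 RNA pair limit the precision.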

Additional observations from a re-analysis of the deposited data

How the results depend on the processing

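The 2 members called higher and the 1 called lower were the same counts under every alternative tried for them. These were offset 16, no background subtraction, median centring, the scanner software's ratios, the series matrix and either array alone. The series matrix holds the scanner software's ratios and so adds no separate check. The others were no filter or a stricter filter on dim probes, the mean of probes, and a size threshold of 0.58. The 5 measured stayed 5 with a looser rule, well above background in 1 or more channels of either array. They also stayed 5 with a stricter rule, in both RNAs on both arrays. Over all genes the count meeting the size rule was 1026 (704 higher and 322 lower), and 1929 (1148 and 781) with the scanner software's ratios or the series matrix; the cause was not tested. With array 1 or array 2 left out it ran from 1061 to 1101. Ang4 read from -0.12 to 0.04, and no member or list gene that met the rule changed sign. The lists were run under the same alternatives, apart from the size threshold, after the data were seen. Mmp17 at 1.02, Pnliprp2 at -1.45, Rnase4 at -1.11 and Xbp1 at -1.03 met the rule with the software's ratios. Pla2g12b at 1.04 met it on array 1 alone. Fcgbp (no filter on dim probes) and Mmp14 (array 1 alone) lost it. With the stricter filter, Nod2 and Wnt10a were no longer counted as measured and so lost it too. No paired analysis was possible because there is 1 RNA pair.

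The depth of an array is not counted in reads: signal over background limits Lyz2, the second Wnt3 probe and the untreated level of Nod2 and Wnt10a. The spread between cultures is unknown.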
